A study of Homo sapiens with 29 samples.

Results

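The p53 response was followed through 8 of its target genes in xenograft tumors treated with a peptide aimed at β-catenin. The genes are CDKN1A, BTG2, GADD45A, AEN, SESN1, TIGAR, RRM2B and MDM2, chosen by symbol from the 13492 genes in the deposited expression table. All 8 were present and all 8 passed the filter on low values, which kept 13373 genes. RNA-seq of polyA RNA was available for 29 mouse-grown tumors of COLO320DM, which is an established line from a human colorectal adenocarcinoma and carries extra copies of MYC. Each tumor was labelled 48 h and belonged to 1 of 4 groups: vehicle (n = 10), Helicon4neg_30mpk (n = 8), Helicon4_30mpk (n = 6) or Helicon4_100mpk (n = 5), with mpk as the dose unit of the labels. The title of the series calls Helicon4 a helicon peptide targeting β-catenin with TCF, the transcription factors of Wnt signaling, and Helicon4neg is taken here only as a compound of that name. Every tumor was a graft of the same line, the contract laboratory randomized the mice to dosing, and the host strain, sex, age and dosing route are not given in the sources used here. The labels number the replicates without naming animals, so the p values measure the spread between these samples.

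The transcription factor p53 is stabilized by DNA damage and other stress and switches on genes for cell cycle arrest, DNA repair, metabolism and apoptosis. MDM2, itself a p53 target, ubiquitinates p53 and closes a feedback loop. Many p53 target genes also respond to other transcription factors, among them FOXO, MYC and ATF4, so their transcripts are not a direct measure of p53 activity. CDKN1A encodes p21, an inhibitor of cyclin-dependent kinases, and BTG2 an antiproliferative protein that recruits the CCR4-NOT deadenylase. GADD45A encodes a stress sensor of growth arrest and DNA repair, and AEN a nuclease that acts in apoptosis. SESN1 encodes sestrin 1, which restrains mTORC1, TIGAR a fructose bisphosphatase that lowers glycolytic flux, and RRM2B the p53-inducible small subunit of ribonucleotide reductase.

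Depth was 26.8 to 61.6 M reads per library. Levels are in CPM, read counts scaled by library size with the authors' between-library factors. Each log2 fold change compares group means of log2(CPM + 1), a scale that shrinks the changes of genes with few counts. The tests are limma fits of all 4 groups with p adjusted over all 13373 genes, and "passed" means an adjusted p under 0.05. Library titles carry codes of unstated meaning. No code held vehicle together with Helicon4, or Helicon4neg together with 100 mpk. A fit with title code as a block compares them only indirectly, along a chain of shared codes. The chain runs from vehicle through Helicon4neg to 1 Helicon4_30mpk library in SH7081. Another single 30 mpk library, in SH7083, links it to 100 mpk, so block values for Helicon4 rest on single libraries. Those against vehicle rest as well on the 2 vehicle and 5 Helicon4neg libraries of SH7080. Within-code values came from 3 codes, SH7080 for Helicon4neg with vehicle, SH7081 for both compounds at 30 mpk and SH7083 for the doses of Helicon4. The slope of log2(CPM + 1) on log2 gene length had a median of 0.421 over the 29 libraries. It was lowest in Helicon4neg library 2 and vehicle library 6 (0.0804 and 0.215), called below the 2 libraries that stood apart. Vehicle libraries 4 and 8 lay near vehicle 6, at 0.264 and 0.268, and were kept. Only Helicon4neg library 2 was separate from its own group, where the next lowest slope was 0.354. Helicon4neg library 2 was also the extreme of the leading principal component. Of the colorectal tumor markers 8 of 12 were measured, with mean vehicle levels of 27.9 CPM for EPCAM, 175 CPM for KRT8, 3135 CPM for CDX2 and 0.690 CPM for KRT19. Some genes that can mark host cells were measured too. PECAM1, VWF, CDH5, KDR, TEK, COL1A2, DCN, LUM, FAP, ACTA2, CD68, LYZ, CD3E and AIF1 were not. From vehicle to 100 mpk COL1A1 rose (12.3 to 21.4 CPM) while PDGFRB fell (12.1 to 9.71). PTPRC rose (20.9 to 24.1 CPM) while CTSS fell (9.99 to 5.48). Which cells these transcripts came from was not tested. The 2 measured endothelial markers of 7, CLDN5 and EGFL7, summed to medians of 60.5 CPM in vehicle, 52.1 in Helicon4neg, 46.5 at 30 mpk and 35.4 at 100 mpk. The 4 measured fibroblast markers of 9 summed to medians of 37.7, 35.4, 44.5 and 43.2 CPM in the same order, and the 4 measured leukocyte markers of 8 to 30.7, 38.7, 29.7 and 34.7 CPM. Over the 29 libraries with group means removed, the endothelial sum correlated with RRM2B at -0.786, CDKN1A at 0.648 and AEN at 0.567, and the leukocyte sum at 0.858, -0.551 and -0.651 in the same order. The other 5 genes lay between -0.202 and 0.310 for both sums, and all 8 between -0.362 and 0.429 for the fibroblast sum. These are descriptions over libraries that share depth and title codes, and the part of host markers in the results below was not tested. Helicon4neg library 2 had the highest endothelial sum and the lowest leukocyte sum of the 29 (146 and 16.7 CPM). The correlations were not repeated without it. In bulk tumors fewer cells of a type and less RNA per cell cannot be told apart.

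Upstream sequence was searched for the p53 response element in the form of a pair of abutting 10-base units. Pairs with a spacer between the units were not searched for. RefSeq windows of 250 bases before a gene start (GRCh38.p14) matched 6 of the 8 genes with 11 starts. GADD45A and RRM2B had no entry. Sites of 20 bases with at most 3 mismatches to the consensus occurred in 3 genes: AEN and MDM2 with 2 mismatches, and SESN1 with 3. By window, 4 of the 11 held such a site, and the MDM2 site was shared by windows of more than 1 start. The remaining MDM2 windows had 5 mismatches and the remaining SESN1 windows 5 and 6. Among 35114 such windows of all genes, 0.561% held a site with at most 2 mismatches and 4.36% a site with at most 3. The best site had 5 mismatches in the CDKN1A and BTG2 windows and 6 in the TIGAR window. CTTTGA, the core bound by TCF factors, occurred on either strand in 0 of the 11 windows (11.2% of all windows held it). A match is a description of letters and no match says only that these letters are not in the window. The 3 sites are shown because their genes took 3 different courses after treatment, AEN lower, MDM2 with no call and SESN1 higher. The AEN site, at chr15:88621306-88621325 on the plus strand, lies 34 to 15 bases before the RefSeq start. It is past the GENCODE 29 start of the gene, 88621296. In the AEN site capitals mark the 4 central bases of each unit.
AEN site: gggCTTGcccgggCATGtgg
In the next pair of windows capitals mark the 20-base site. The MDM2 window, chr12:68808767-68809001 on the plus strand, lies within the gene upstream of an internal start and overlaps no GENCODE 29 exon. Its site begins 94 bases before that start. The SESN1 window, chr6:109008989-109009238 on the minus strand, also lies within the gene, and its site begins 49 bases before the start. Its overlap with annotated exons was not checked.
MDM2 window: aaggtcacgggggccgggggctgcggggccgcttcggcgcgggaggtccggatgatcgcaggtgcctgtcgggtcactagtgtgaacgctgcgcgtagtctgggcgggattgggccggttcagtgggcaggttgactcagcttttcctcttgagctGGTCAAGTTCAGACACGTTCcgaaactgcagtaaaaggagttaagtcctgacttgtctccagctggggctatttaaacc
SESN1 window: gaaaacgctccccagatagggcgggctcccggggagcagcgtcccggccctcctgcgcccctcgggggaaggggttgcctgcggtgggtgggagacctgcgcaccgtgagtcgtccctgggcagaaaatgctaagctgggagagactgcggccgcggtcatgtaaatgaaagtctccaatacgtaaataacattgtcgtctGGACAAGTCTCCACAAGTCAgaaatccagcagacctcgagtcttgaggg

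The 8 genes did not move as a block. BTG2, SESN1 and TIGAR rose and CDKN1A and AEN fell with Helicon4 at 100 mpk against vehicle, while RRM2B, MDM2 and GADD45A did not pass. That makes 5 of 8 genes called, where 30.2% of all genes tested were called in either direction, 14.3% up and 15.9% down. At 30 mpk 4 of 8 were called against vehicle (BTG2 and SESN1 up, CDKN1A and AEN down), where 11.1% of all genes were called, 5.86% up and 5.22% down. Helicon4neg against vehicle gave 0 calls of 8 in limma, with 1 gene, TIGAR, at an unadjusted p under 0.05 and 0 calls in edgeR and DESeq2, where limma called 4.84% of all genes, 2.21% up and 2.62% down. In that comparison 0 of 8 genes had groups that did not overlap, as did 0.508% of all genes. The median fold change of the 8 was 0.15 at 100 mpk and -0.05 at 30 mpk against vehicle, beside 0.01 and -0.00 over all genes tested. Without the 2 libraries that stood apart RRM2B also passed at 100 mpk, which made 6 of 8, while all-gene calls rose from 4043 to 5276. With title code as a block the calls against vehicle were lost at 100 mpk, and all but that of BTG2 at 30 mpk. That fit rests on single Helicon4 libraries.

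**Figure D1:**
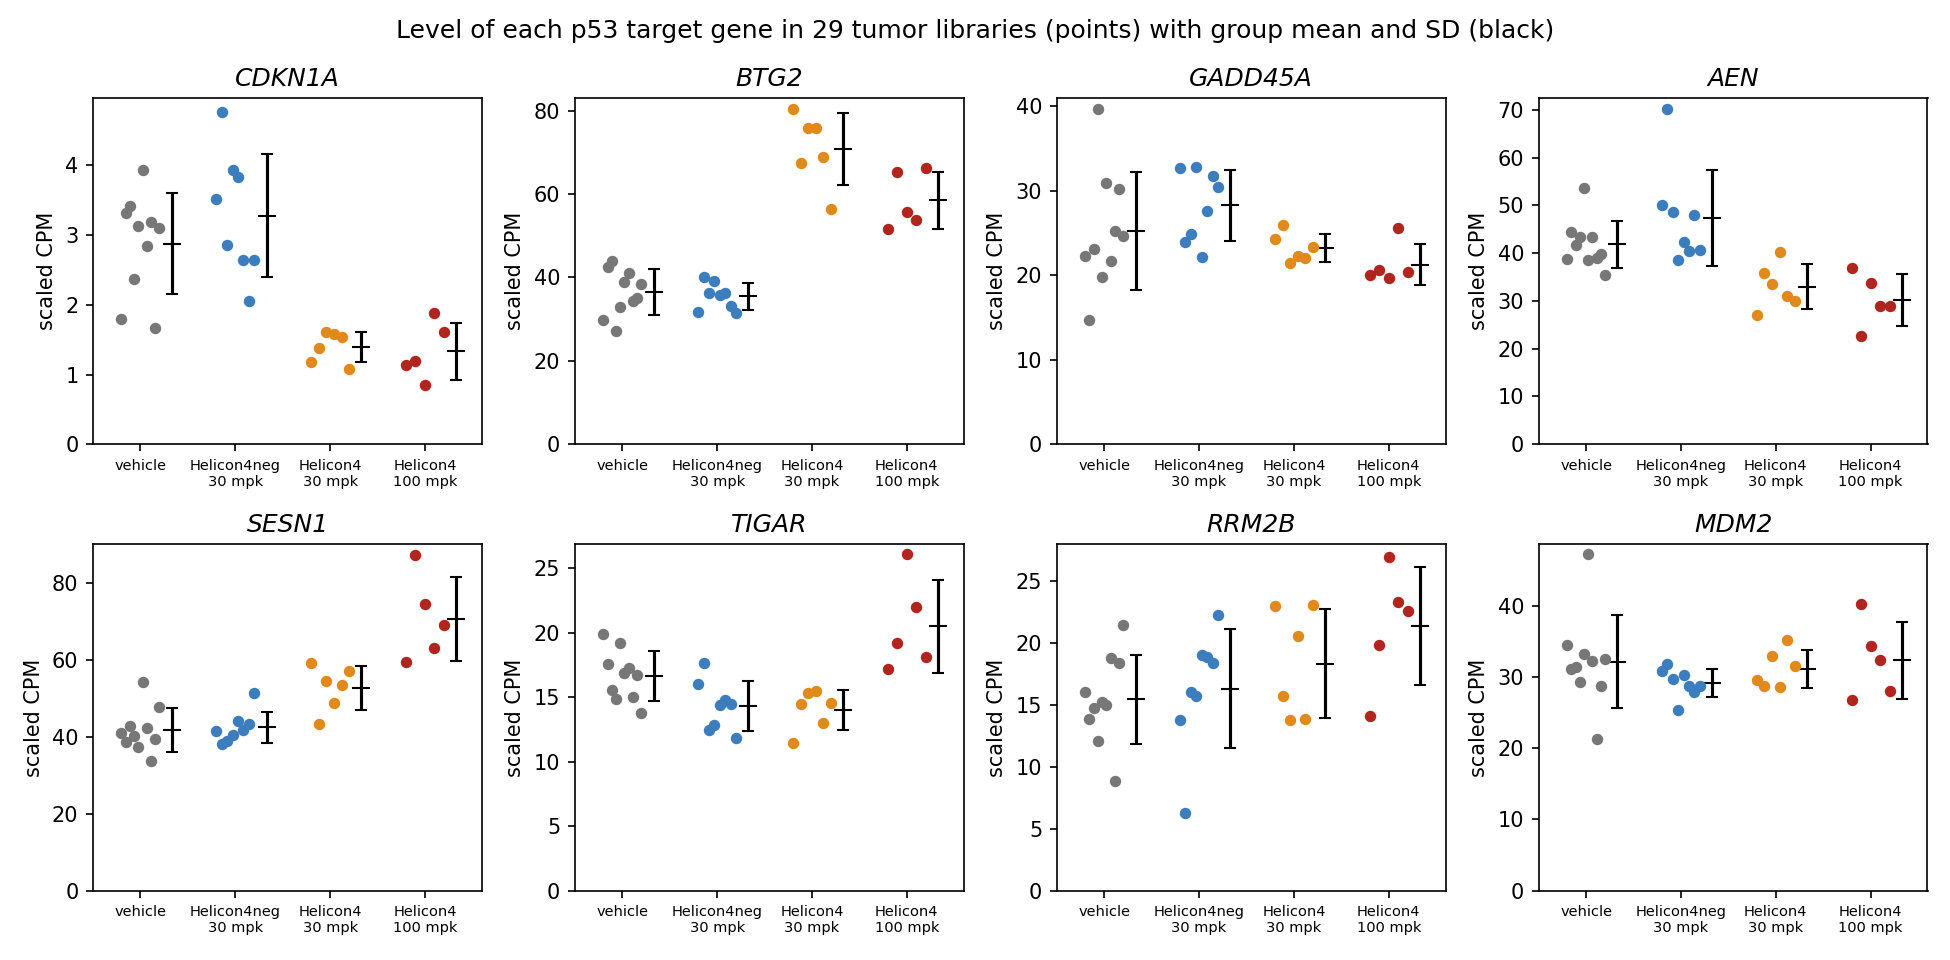
Scaled CPM (vertical axes, from 0) of the 8 genes in each of the 29 libraries, by group, with the group mean and SD in black beside the points. BTG2 at either dose of Helicon4 lies above every vehicle and Helicon4neg library, CDKN1A is lowest with Helicon4, and MDM2 overlaps across all 4 groups.

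CDKN1A (chr6:36676460-36687339, plus strand in GENCODE 29) was the least abundant of the 8. In vehicle it ranged from 1.67 to 3.94 CPM with a median of 3.11 (69 to 213 reads), and in Helicon4neg from 2.06 to 4.77 CPM with a median of 3.19. At 30 mpk of Helicon4 it ranged from 1.08 to 1.61 CPM with a median of 1.46, and the 5 libraries at 100 mpk held 1.14, 1.19, 0.854, 1.88 and 1.60 CPM. Every library at 30 mpk was below every vehicle and Helicon4neg library, and at 100 mpk a single library reached into the vehicle range. The mean fell from 2.88 ± 0.724 CPM (SD, n = 10) to 1.39 ± 0.221 CPM (SD, n = 6) at 30 mpk, a log2 fold change of -0.68 ± 0.13 (SE, adjusted p = 0.000584). At 100 mpk the fold change was -0.72 ± 0.14 (adjusted p = 0.000218). On the recovered reads, without a pseudocount, edgeR gave -1.04 and -1.09. Blocking on title code left differences of -0.14 and -0.04 (adjusted p = 0.987 and 0.976). An antisense RNA, DINOL, overlaps the gene, and since the strand setting of the counting is not stated its reads cannot be told apart here.

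The other members of the p21 family, CDKN1B (p27) and CDKN1C (p57), did not pass in any comparison with vehicle. CDKN1B stood at 88.5 ± 17.1 CPM (SD, n = 10) in vehicle and 92.6 ± 13.8 (SD, n = 5) at 100 mpk, and CDKN1C at 15.7 ± 3.69 and 21.7 ± 6.61. Whether either differed from CDKN1A was not tested.

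BTG2 (chr1:203305491-203309602, plus strand) was higher with Helicon4 in every library. Vehicle libraries ranged from 27.1 to 43.99 CPM with a median of 36.7, and Helicon4neg from 31.5 to 40.1 CPM with a median of 36.1. Helicon4 at 30 mpk gave 56.3 to 80.4 CPM with a median of 72.3, and the libraries at 100 mpk held 51.5, 65.2, 55.7, 53.8 and 66.2 CPM. Neither Helicon4 group overlapped vehicle or Helicon4neg. Groups that did not overlap were 4.34% of all genes for 30 mpk against vehicle and 8.8% for 100 mpk, and 2 of the 8 genes in either comparison (BTG2 with CDKN1A, and BTG2 with SESN1). The log2 fold change from vehicle was 0.95 ± 0.10 (SE, adjusted p = 1.25e-08) at 30 mpk and 0.68 ± 0.10 (adjusted p = 6.14e-06) at 100 mpk. With title code as a block BTG2 stood at 1.23 against vehicle at either dose. That estimate rests on Helicon4_30mpk library 1, the Helicon4 library of SH7081, which at 80.4 CPM was the highest of its group.

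The BTG and TOB family split by member at 100 mpk. BTG1 went from 62.1 ± 8.40 to 86.9 ± 19.1 CPM (log2 fold change 0.46 ± 0.11, adjusted p = 0.0012), and TOB1 and TOB2 rose by 0.57 ± 0.14 and 0.38 (adjusted p = 0.00315 and 0.017). BTG3 fell from 20.9 ± 2.995 to 15.0 ± 1.497 CPM (-0.45 ± 0.09, adjusted p = 0.000283). At 30 mpk BTG3 (-0.38) and TOB2 (0.42) passed and BTG1 (-0.04) and TOB1 (0.36) did not. Of the 17 tested family members of all 8 genes, 4 were higher and 3 lower at 100 mpk (41.2% called, beside 30.2% of all genes). At 30 mpk 2 were higher and 3 lower (29.4%, beside 11.1%). With title code as a block 0 of the 17 passed at either dose against vehicle, where that fit called only 141 and 74 of all 13373 genes at 100 and 30 mpk. Its adjusted p at 100 mpk was 0.784 for BTG1, 0.761 for TOB1, 0.786 for TOB2 and 0.478 for BTG3.

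GADD45A (chr1:67685061-67688338, plus strand) did not pass against vehicle at either dose. It ranged from 14.7 to 39.7 CPM in vehicle, with a median of 23.9, and from 22.2 to 32.9 CPM in Helicon4neg, with a median of 28.98. The range was 21.4 to 25.99 CPM at 30 mpk with a median of 22.8, and the 100 mpk libraries held 20, 20.6, 19.7, 25.6 and 20.4 CPM. Its Helicon4 libraries lay inside the vehicle range. The fold change from vehicle at 100 mpk was -0.20, with 95% limits of -0.49 to 0.09 (adjusted p = 0.296). Its relative GADD45B, which is induced by stress and cytokine signals, was lower at both doses, from 7.5 ± 3.17 CPM in vehicle to 3.35 ± 0.987 at 30 mpk (-0.92 ± 0.20, adjusted p = 0.00173) and 3.92 ± 1.28 at 100 mpk (-0.75 ± 0.21, adjusted p = 0.00753). Blocking on title code left GADD45B at -0.40 at 30 mpk and turned it to 0.17 at 100 mpk (adjusted p = 0.987 and 0.94).

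AEN (chr15:88621296-88632282, plus strand) was lower with Helicon4. It ranged from 35.5 to 53.6 CPM in vehicle, with a median of 40.8, and from 38.7 to 70.1 in Helicon4neg, with a median of 45.2. Helicon4 at 30 mpk gave 26.99 to 40.3 CPM with a median of 32.3, and the 100 mpk libraries held 36.9, 22.6, 33.8, 28.9 and 28.9 CPM. Both Helicon4 groups overlapped the lower end of vehicle, and the 100 mpk group lay below all of Helicon4neg. The log2 fold change from vehicle was -0.47 ± 0.12 (SE, adjusted p = 0.00344) at 100 mpk. At 30 mpk it was -0.34 ± 0.11 with an adjusted p of 0.0493, which lost its call when any of 13 single libraries was left out (vehicle 2 to 9 and Helicon4_30mpk 1, 2, 3, 5 and 6, adjusted p from 0.0529 to 0.169). REXO4, a related exonuclease gene, fell as well at 100 mpk, from 141 ± 20.7 to 98.9 ± 17.8 CPM (-0.51 ± 0.12, adjusted p = 0.00148), and ISG20L2 did not pass (95.7 CPM in vehicle and at 100 mpk).

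SESN1 (chr6:108986437-109094819, minus strand) was higher at both doses, and highest at 100 mpk. Vehicle libraries ranged from 33.6 to 54.2 CPM with a median of 40.6 and Helicon4neg libraries from 37.97 to 51.2 CPM with a median of 41.6. The range at 30 mpk was 43.4 to 59.2 CPM with a median of 53.9, and the 100 mpk libraries held 59.3, 87.3, 74.4, 63.1 and 69.1 CPM. All libraries at 100 mpk lay above all others, the closest by a margin of 59.3 against 59.2 CPM. The fold change from vehicle was 0.33 ± 0.09 (SE, adjusted p = 0.0146) at 30 mpk and 0.75 ± 0.10 (adjusted p = 6.59e-07) at 100 mpk. The difference between the doses, 0.41 ± 0.11, passed as well (adjusted p = 0.0279). That dose difference lost its call without Helicon4_30mpk 2 or 4 or Helicon4_100mpk 2 or 3 (adjusted p from 0.074 to 0.144), and the 30 mpk rise without Helicon4_30mpk 1 (0.0585).

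Sestrins restrain mTORC1 by inhibiting the GATOR2 complex. SESN3, a FOXO-responsive family member, went from 17.6 ± 3.06 CPM in vehicle to 27.2 ± 4.50 at 30 mpk (log2 fold change 0.60 ± 0.17, adjusted p = 0.0148) and 43.0 ± 8.07 at 100 mpk (1.24 ± 0.18, adjusted p = 2.54e-06). Both SESN3 calls were lost when title code was blocked (0.35 and 1.01, adjusted p = 0.987 and 0.641). SESN2, which responds to ATF4, did not pass at either dose (10.3 ± 2.37 CPM in vehicle, 9.15 ± 0.914 and 11.2 ± 1.77). Of the GATOR2 genes, WDR24 and SEC13 were lower at 100 mpk (-0.50 and -0.38, adjusted p = 0.00807 and 0.0061) and MIOS, WDR59 and SEH1L did not pass (0.01, -0.16 and -0.08).

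TIGAR (chr12:4307763-4354593, plus strand) was highest at 100 mpk, with group ranges that overlapped in part. It ranged from 13.8 to 19.9 CPM in vehicle with a median of 16.8, from 11.9 to 17.7 in Helicon4neg with a median of 14.4, and from 11.4 to 15.4 at 30 mpk with a median of 14.5. The libraries at 100 mpk held 17.2, 19.2, 26.1, 21.95 and 18.1 CPM. They were all above the 30 mpk group and overlapped vehicle. The fold change was 0.28 ± 0.10 (SE, adjusted p = 0.0377) against vehicle, 0.51 ± 0.11 (adjusted p = 0.00733) against 30 mpk and 0.49 ± 0.11 (adjusted p = 0.000601) against Helicon4neg. The first of these lost its call when vehicle 3, 4, 8 or 10 or Helicon4_100mpk 2, 3 or 4 was left out (adjusted p from 0.0501 to 0.197). Helicon4neg and 30 mpk stood at -0.21 and -0.23 against vehicle and did not pass, and without Helicon4neg library 2 the former passed (-0.25, adjusted p = 0.0382). The structurally related kinase and phosphatase genes PFKFB2, PFKFB3 and PFKFB4 did not pass (0.13, -0.11 and -0.10 at 100 mpk).

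RRM2B lies on chromosome 8 (minus strand) and varied widely between libraries, with coefficients of variation of 22.3% to 29.5% within groups. It ranged from 8.82 to 21.4 CPM in vehicle with a median of 15.1, from 6.22 to 22.3 in Helicon4neg with a median of 17.2, and from 13.7 to 23.1 at 30 mpk with a median of 18.1. The 100 mpk libraries held 14.1, 19.9, 26.9, 23.3 and 22.5 CPM. All 4 groups overlapped. The fold change at 100 mpk was 0.45 ± 0.20 (SE), with 95% limits of 0.03 to 0.87 and an adjusted p of 0.0972. It passed without Helicon4_100mpk 1 (0.58, adjusted p = 0.038), without the 2 libraries that stood apart (0.45, adjusted p = 0.0305) and with the replicate number as a block (0.64, adjusted p = 0.0313), and turned to -0.49 in a title code block (adjusted p = 0.826). That block value takes in a difference of -0.54 within SH7080, between 5 Helicon4neg libraries and 2 vehicle libraries. Helicon4neg library 2, at 6.22 CPM, was among the 5. The differences within SH7081 and SH7083 were 0.21 and -0.16. The other subunits of ribonucleotide reductase, RRM1 and RRM2, did not pass (-0.16 and -0.26 at 100 mpk).

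MDM2 (chr12:68808176-68850686, plus strand) showed no call in any of the 6 comparisons. It ranged from 21.3 to 47.4 CPM in vehicle with a median of 31.9, from 25.4 to 31.8 in Helicon4neg with a median of 29.3 and from 28.6 to 35.3 at 30 mpk with a median of 30.6. The 100 mpk libraries held 26.8, 40.3, 34.4, 32.4 and 28.1 CPM. Those values lay inside the vehicle range. The fold change from vehicle was 0.02 at 100 mpk, with 95% limits of -0.21 to 0.25, and -0.03 at 30 mpk, with limits of -0.24 to 0.19. The gene for carboxypeptidase M overlaps MDM2 on the opposite strand. MDM4, the partner of MDM2 in restraining p53, did not pass either (46.6 ± 10.6 CPM in vehicle and 47.5 ± 18.9 at 100 mpk).

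TP63, a p53 family member, was low throughout, at 0.489 ± 0.160 CPM in vehicle and 1.05 ± 0.374 at 100 mpk (0.45 ± 0.11, adjusted p = 0.00196).

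**Figure D2:**
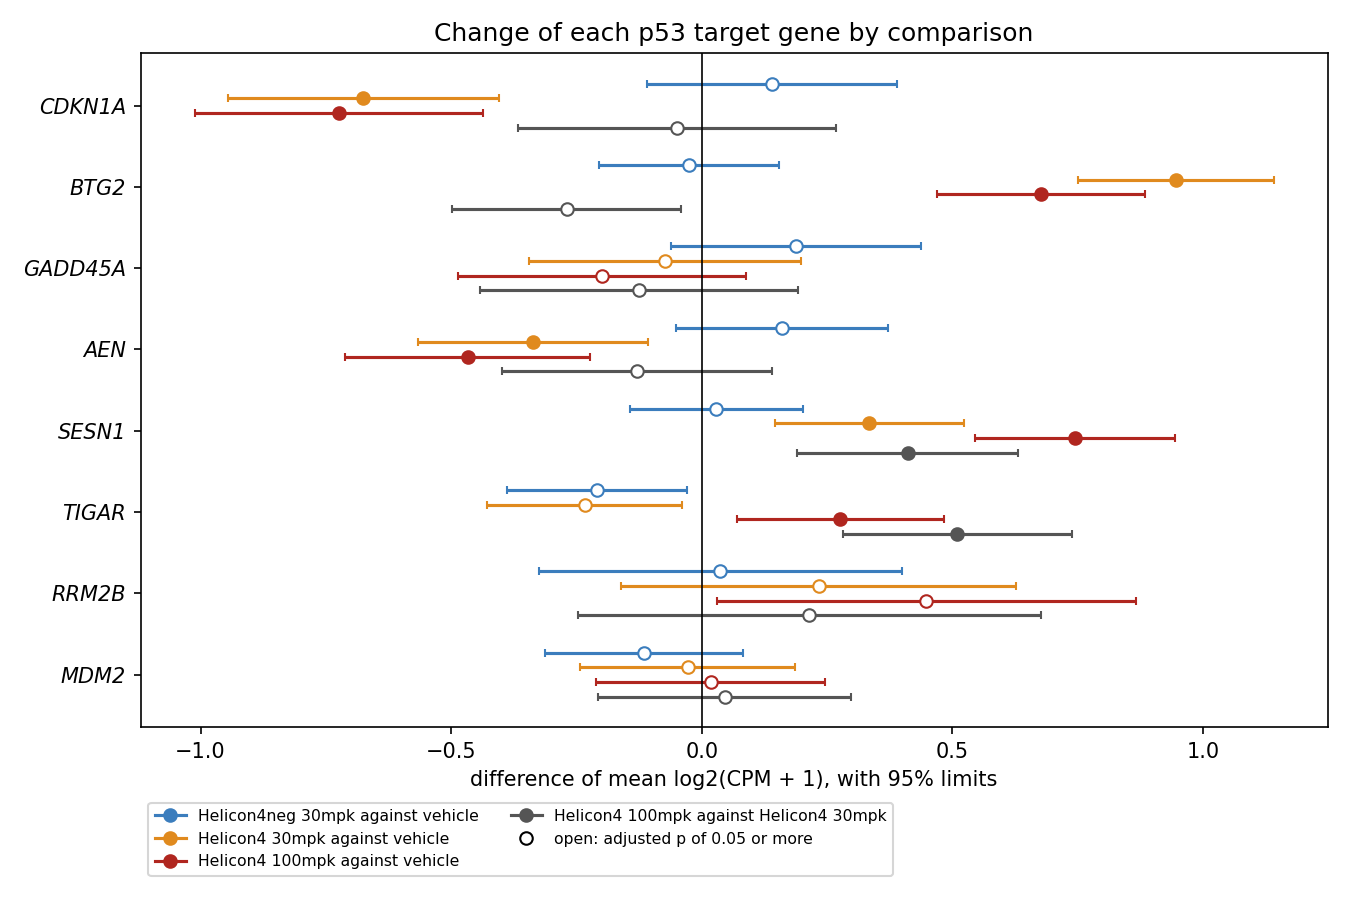
Differences of mean log2(CPM + 1) with 95% limits (horizontal axis) for the 8 genes in 4 comparisons, with filled points where the adjusted p was under 0.05. For 100 mpk against vehicle CDKN1A lies at -0.72 and BTG2 and SESN1 at 0.68 and 0.75, and all 8 points for Helicon4neg against vehicle are open.

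The comparison of Helicon4 with Helicon4neg at the matched dose of 30 mpk gave 4 calls. CDKN1A (-0.82 ± 0.14, adjusted p = 8.25e-05) and AEN (-0.50 ± 0.12, adjusted p = 0.00345) were lower and BTG2 (0.97 ± 0.10, adjusted p = 1.70e-08) and SESN1 (0.31 ± 0.10, adjusted p = 0.0289) higher, 4 of 8 genes where 15.1% of all genes were called, 7.78% up and 7.31% down. This comparison shares its Helicon4 libraries with that of 30 mpk against vehicle. Groups did not overlap for BTG2 and CDKN1A (7.1% of all genes). SESN1 lost its call without Helicon4neg 3 or Helicon4_30mpk 1, 3, 5 or 6 (adjusted p from 0.0504 to 0.0857). Within code SH7081, which held 1 library of Helicon4 and 3 of Helicon4neg, the log2 differences were -0.66 for CDKN1A, 1.24 for BTG2, 0.38 for SESN1 and -0.65 for AEN, with no test. With title code as a block the 30 mpk contrast is these same differences (1.24 for BTG2). It rests on the 1 Helicon4 library of that code and is given as an effect size only.

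At 100 mpk against Helicon4neg, where the doses differ, 6 of 8 genes were called and 34.8% of all genes, 17% up and 17.7% down. BTG2 (0.70), SESN1 (0.72) and TIGAR (0.49) were higher and CDKN1A (-0.87), AEN (-0.63) and GADD45A (-0.39) lower. GADD45A had an adjusted p of 0.0398 and lost its call without Helicon4neg 1, 4, 7 or 8 or Helicon4_100mpk 1, 2, 3 or 5 (0.059 to 0.0897). Groups did not overlap for 4 of the 8 genes, BTG2, SESN1, CDKN1A and AEN, and for 14.6% of all genes. In a title code block BTG2 stood at 1.24, an estimate that rests on single Helicon4_30mpk libraries in SH7081 and SH7083.

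The 2 doses of Helicon4 differed in SESN1 and TIGAR, both higher at 100 mpk, 2 of 8 genes where 3.6% of all genes were called, 1.74% up and 1.86% down. Both were also genes whose dose groups did not overlap, as were 3.92% of all genes. BTG2 stood at -0.27 for 100 against 30 mpk, with 95% limits of -0.50 to -0.04 and an adjusted p of 0.197, and CDKN1A at -0.05, with limits of -0.37 to 0.27. Within code SH7083, which held 4 libraries at 100 mpk and 1 at 30 mpk, the differences were 0.49 for TIGAR, 0.30 for SESN1 and -0.00 for BTG2. Neither SESN1 nor TIGAR passed in a title code block (adjusted p = 0.985 and 0.802).

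Helicon4neg against vehicle ranged from -0.21 for TIGAR (95% limits -0.39 to -0.03, adjusted p = 0.171) to 0.19 for GADD45A (limits -0.06 to 0.44). The smallest difference was that of BTG2, -0.03 with limits of -0.20 to 0.15. Within code SH7080, which held 5 Helicon4neg and 2 vehicle libraries, differences ran from -0.54 for RRM2B to 0.52 for CDKN1A, with no test.

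Another 64 measured p53 targets, fixed as 5 lists by role, were set beside the 8 genes, and 62 of them passed the filter. At 100 mpk against vehicle 11 were higher and 12 lower, 37.1% called where 30.2% of all genes were (14.3% up and 15.9% down), with a median of -0.02 beside 0.01. Without the 2 libraries that stood apart 14 were higher and 17 lower, where all-gene calls rose from 4043 to 5276 of 13373. At 30 mpk 2 were higher and 6 lower (12.9%, beside 11.1% of all genes), and with Helicon4neg 1 was higher and 1 lower (3.23%, beside 4.84% of all genes, PLK2 at 0.45 and PANK1 at -0.28). Without the same 2 libraries these became 3 higher and 9 lower at 30 mpk and 2 higher and 6 lower with Helicon4neg. All-gene calls rose as well, from 1481 to 2198 at 30 mpk and from 647 to 2031 with Helicon4neg. The apoptosis list holds BMF, which is not an established p53 target, and without it the counts at 100 mpk were 10 higher and 12 lower of 61.

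Cell cycle genes went both ways. At 100 mpk 4 of 12 were higher and 2 lower (50% called, beside 30.2% of all genes, 14.3% up and 15.9% down). CCNG2, an atypical cyclin, rose from 43.99 ± 10.5 to 81.7 ± 18.8 CPM (0.88 ± 0.21, adjusted p = 0.00155), and FBXW7, a ubiquitin ligase subunit that targets cyclin E and MYC, from 26.96 ± 2.61 to 35.6 ± 5.80 CPM (0.38). SFN, which encodes 14-3-3σ and holds cells in G2, fell from 3.18 ± 1.61 to 0.902 ± 0.368 CPM (-1.07 ± 0.23, adjusted p = 0.000695). SFN and CCNG2 moved the same way at 30 mpk (-0.95 and 0.64, adjusted p = 0.00288 and 0.02975).

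Of 16 apoptosis genes 3 were higher and 3 lower at 100 mpk (37.5% called, beside 30.2% of all genes). Without the 2 libraries that stood apart 5 were higher and 5 lower, where all-gene calls rose from 4043 to 5276. PIDD1, a scaffold that activates caspase-2, fell from 70.7 ± 16.1 to 41.7 ± 7.86 CPM (-0.73 ± 0.15, adjusted p = 0.000445), and BID, a BH3 protein, from 75.5 ± 15.9 to 54.9 ± 4.88 CPM (-0.43, adjusted p = 0.0155). TP53I3, a quinone oxidoreductase, rose from 5.25 ± 1.46 to 7.86 ± 1.61 CPM (0.52, adjusted p = 0.0152). BMF rose from 9.31 ± 1.38 to 48.7 ± 6.67 CPM (2.27 ± 0.11, adjusted p = 5.08e-16). It stood at 2.665 in a title code block, which rests on single libraries.

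The DNA repair list had 6 of 9 genes without a call at 100 mpk and 3 lower (33.3% called, beside 30.2% of all genes). They were PCNA, the sliding clamp that p21 binds (-0.57 ± 0.14, adjusted p = 0.00245), GADD45B and DDB2, a sensor of ultraviolet damage (-0.35, adjusted p = 0.00956). PCNA and GADD45B also passed at 30 mpk (-0.46 and -0.92).

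In the metabolic list 1 of 11 genes was higher and 3 lower (36.4% called, beside 30.2% of all genes). FUCA1, a lysosomal fucosidase, rose from 18.03 ± 1.74 to 27.9 ± 2.965 CPM (0.60 ± 0.08, adjusted p = 1.58e-06). PRKAB1, an AMPK subunit, fell from 57.2 ± 3.12 to 41.7 ± 3.89 CPM (-0.45 ± 0.07, adjusted p = 4.25e-06). SLC7A11, the cystine transporter that p53 represses, fell from 22.1 ± 6.18 to 11.2 ± 2.90 CPM (-0.92 ± 0.15, adjusted p = 2.74e-05). It stood at -1.85 in a title code block, which rests on single libraries. TP53I13 was lower too (-0.55, adjusted p = 0.02825). Of 14 secreted, surface and trafficking genes 28.6% were called, beside 30.2% of all genes. In that list 3 were higher (TGFA, CD82 and MR1, by 0.41, 0.31 and 0.36 on the log2 scale) and NINJ1 was lower (-0.35). With title code as a block only the calls of BMF and SLC7A11 among the 62 genes remained at 100 mpk. That fit rests on single Helicon4 libraries.

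**Figure D3:**
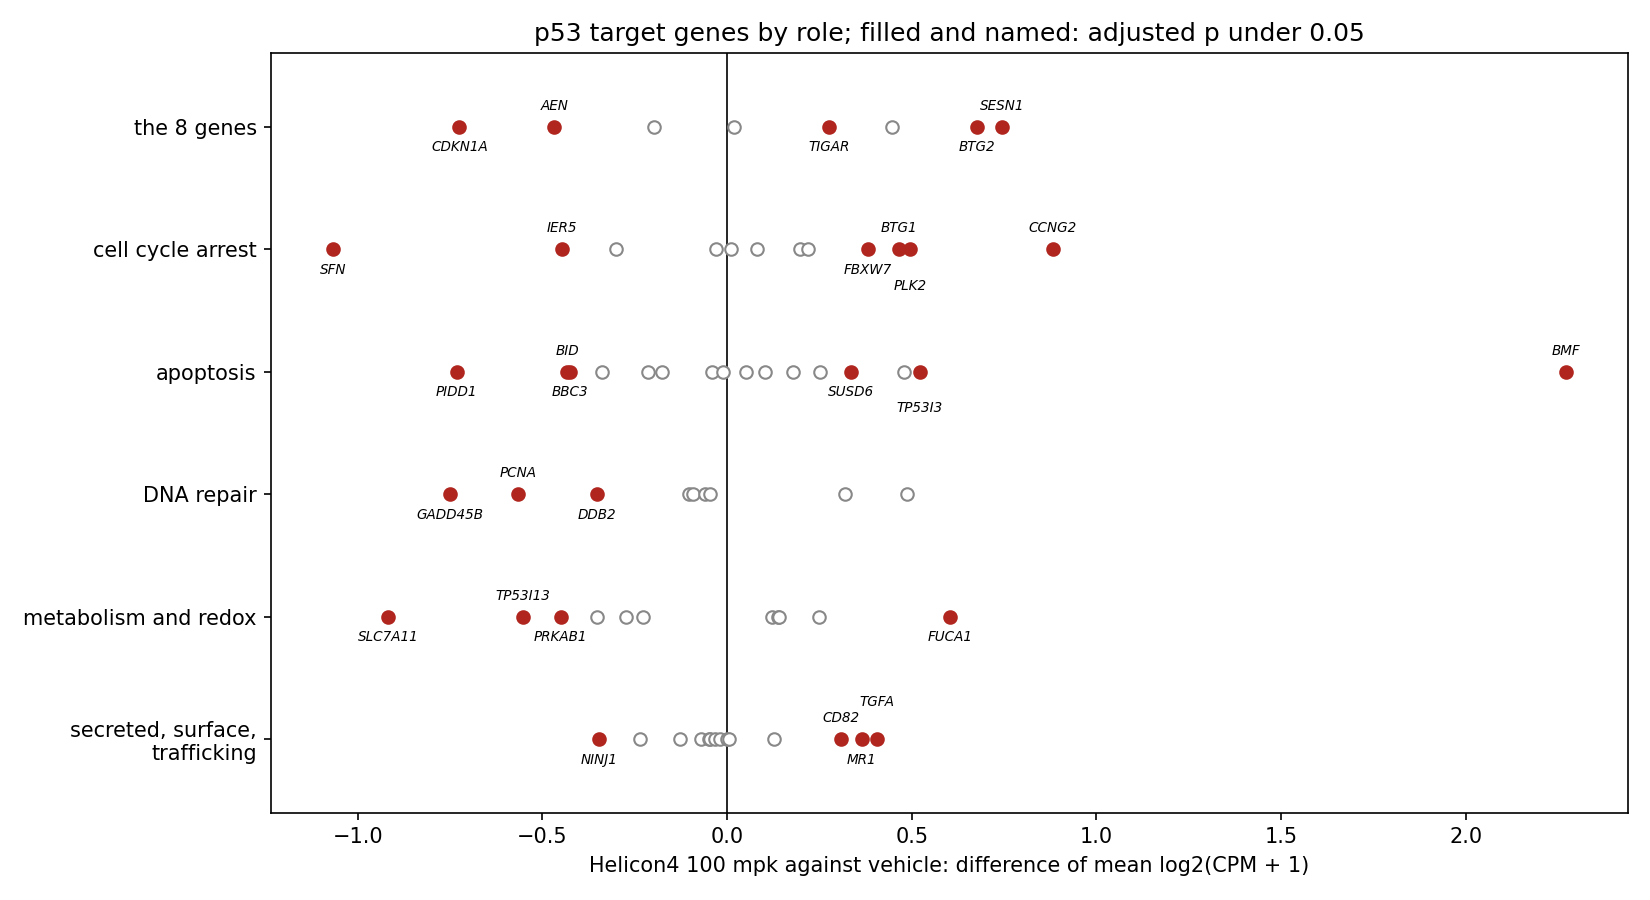
Difference of mean log2(CPM + 1) between Helicon4 at 100 mpk and vehicle (horizontal axis) for the 8 genes and for the other p53 targets by role, with filled, named points where the adjusted p was under 0.05. Calls lie on both sides of 0 in every row except DNA repair, where all 3 are lower (3 of 9 genes). Of all genes 30.2% were called. BMF at 2.27 is the farthest point.

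Of 25 p53 regulators, genes that act upstream of the 8, 3 were higher and 4 lower at 100 mpk, 28% called beside 30.2% of all genes. Without the 2 libraries that stood apart these were 4 and 6, where all-gene calls rose from 4043 to 5276. Besides TP63 the calls of the reported fit included ATM, the kinase that signals DNA breaks (0.45, adjusted p = 0.0273), PPP1R13L, which encodes iASPP, an inhibitor of p53 (-0.45, adjusted p = 0.00758), and ZBTB17, which encodes MIZ1, a partner of MYC in repressing CDKN1A (-0.40, adjusted p = 0.0227). At 30 mpk TP63 alone of the 25 passed.

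Downstream of p21, cells with active p53 repress cell cycle genes through the DREAM complex. Of 25 such genes 8 were lower at 100 mpk (32%, beside 15.9% of all genes called down) and 17 did not pass, with a list median of -0.21 beside 0.01 over all genes. E2F1 fell from 99.3 ± 19 to 52.5 ± 6.63 CPM (-0.89 ± 0.17, adjusted p = 0.000182), and CDC20 and PLK1 by 0.41 and 0.41 on the log2 scale. At 30 mpk 1 of the 25 passed (E2F1, -0.50), beside 5.22% of all genes called down. Against Helicon4neg 5 of the 25 were lower at 100 mpk (20%, beside 17.7% of all genes called down). At 30 mpk against Helicon4neg 0 were lower (beside 7.31%). Whether p53 had a part was not tested. Among 24 partners of the 8 proteins 7 were lower at 100 mpk (29.2%, beside 15.9% of all genes called down). Without the 2 libraries that stood apart 10 were lower, where all-gene calls in either direction rose from 4043 to 5276. The 7 included CCND2 (-0.66, adjusted p = 0.00115), CDK4 (-0.40, adjusted p = 0.0017) and PRMT1, an arginine methyltransferase that binds BTG proteins (-0.47, adjusted p = 0.00607). None of these calls of the regulators, DREAM genes or partners held with title code as a block.

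RRM2B followed a property of the libraries. The slope of log2(CPM + 1) on log2 gene length ranged from 0.0804 to 0.517 over the 29 libraries. With group means removed, RRM2B correlated with it at Pearson r = 0.877 and Spearman rho = 0.859 (permutation p = 1e-05 each, the smallest that 100000 permutations can give, adjusted p = 8e-05 over 8 relations), and r was 0.884 without the 2 libraries farthest from the median slope. All permutations here shuffled libraries within groups and ignored title code, so their p values can overstate the evidence. At 30 mpk the slope was 0.388 to 0.442 in SH7082, with RRM2B at 13.7 to 20.6 CPM. The single 30 mpk libraries of SH7081 and SH7083 had slopes of 0.517 and 0.493, with RRM2B at 22.9 and 23.05 CPM. Slope and code were not separated. With the slope as a covariate, chosen after the data were seen, the RRM2B difference at 100 mpk was 0.16 (adjusted p = 0.258). CDKN1A gave r = -0.547 and rho = -0.51 (permutation p = 0.00505 and 0.00787, adjusted p = 0.0202 and 0.0315), with r at -0.334 without the same 2 libraries, so that it rested in part on them. AEN gave r = -0.515 and rho = -0.438 (permutation p = 0.0226 and 0.0179, adjusted p = 0.0602 and 0.0477), with r at -0.282 without them. The other 5 genes had r between -0.203 and 0.178. With the slope as a covariate CDKN1A at 100 mpk was at -0.60 (adjusted p = 0.000263) and AEN at -0.37 (adjusted p = 0.00533), so both calls remained, while the AEN call at 30 mpk was lost (-0.24, adjusted p = 0.104).

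**Figure D4:**
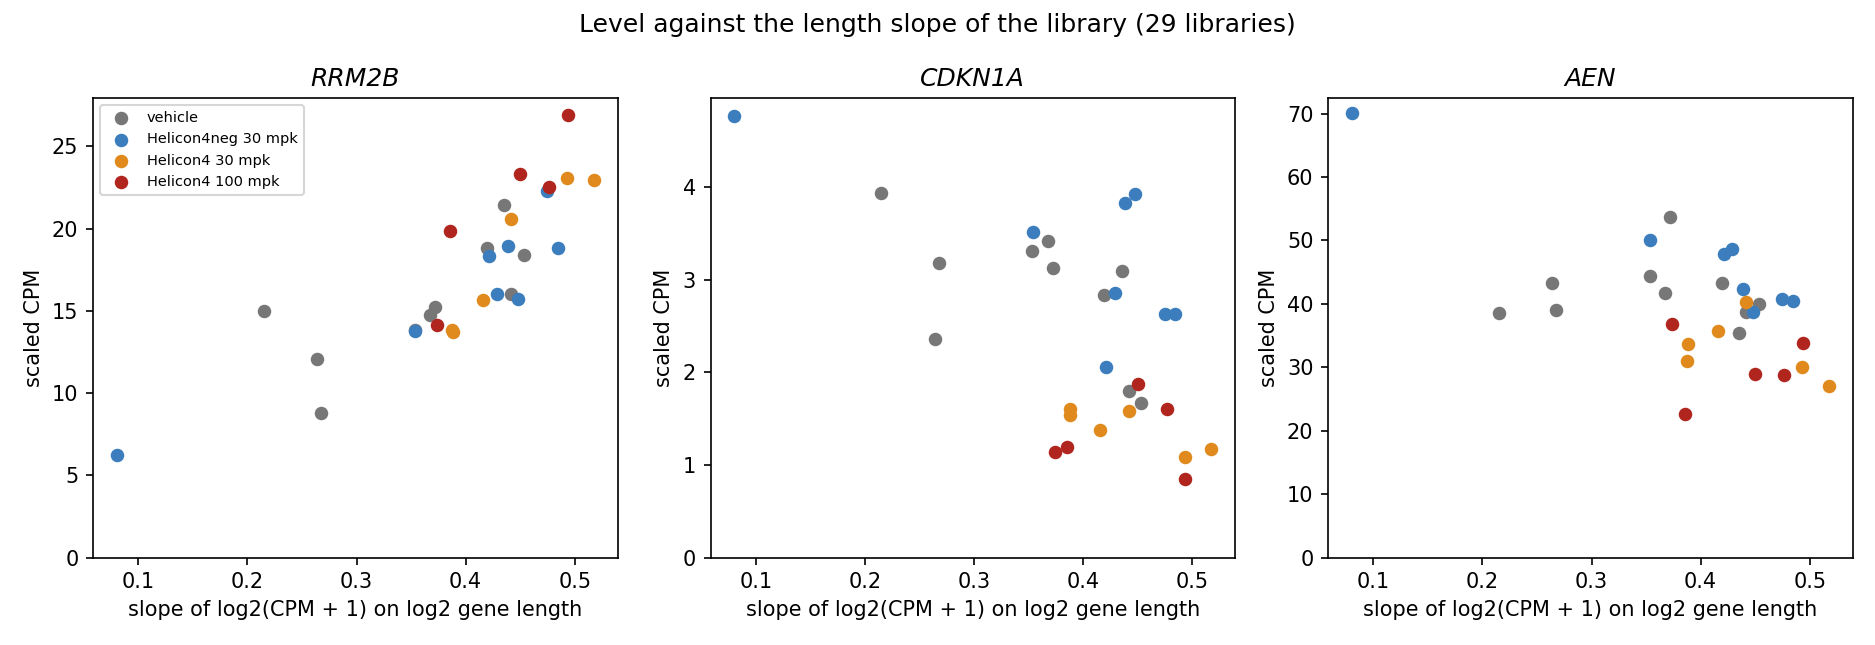
Scaled CPM (vertical axes, from 0) of RRM2B, CDKN1A and AEN against the slope of log2(CPM + 1) on log2 gene length (horizontal axis) in 29 libraries, coloured by group. RRM2B rises with the slope, and the Helicon4neg library at a slope of 0.0804 has the lowest RRM2B, 6.22 CPM, and the highest AEN, 70.1 CPM.

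The 8 genes varied largely apart from each other within groups. Over the 28 pairs the correlation of log2 values with group means removed had a median of -0.0513 and ran from -0.573 (SESN1 with AEN) to 0.67 (SESN1 with MDM2), and 2 pairs were above 0.5 and 2 below -0.5. These are descriptions over 29 libraries that share title codes and depth. The genes most like each member over the 29 libraries, by Pearson correlation of log2 values among genes with a mean of at least 5 CPM, were taken without regard to function, and their correlations include the differences between groups. They included POMC and CEBPD for CDKN1A (0.932 and 0.92), ASTN2, SMOC1 and EPHB3 for BTG2 (0.943, 0.927 and 0.919, or 0.679, 0.703 and 0.46 with group means removed), and STON1, GRAMD1C and YPEL5 for SESN1 (0.956, 0.945 and 0.936). Levels of POMC were 11.2 CPM in vehicle and 0.711 at 100 mpk, and those of EPHB3, a receptor of the Eph family, 12.04 and 40.5. For AEN they were WDR5, TMEM109 and FJX1 (0.911, 0.901 and 0.899), for TIGAR FAM118B, ANXA1 and PANK1 (0.828, 0.8 and 0.781), and for RRM2B APPL1, TNPO1 and CLIC4 (0.973, 0.973 and 0.972). MDM2 was nearest to LYPLAL1, WTAP and CALM2 (0.857, 0.841 and 0.83). GADD45A was nearest to PPP1R15A, HS3ST1 and DDIT3 (0.878, 0.814 and 0.796), and PPP1R15A and DDIT3 encode GADD34 and CHOP of the integrated stress response. Per kb of the gene length in the table, mean vehicle levels descended from BTG2 (13.2 CPM per kb) through GADD45A (12.2), SESN1 (8.14), AEN (6.95), TIGAR (4.15), RRM2B (2.78) and MDM2 (2.43) to CDKN1A (0.943), an order given without a test.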

How the data were processed

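PolyA RNA came from 29 xenograft tumors (sequencer: NovaSeq S4), and 2 library kits are named in the labels without saying which was used. According to the submitters' processing notes the authors ran Trimmomatic 0.39, STAR 2.7.7a, Subread 2.4.2 (featureCounts) and edgeR 4.0.2 on GRCh38. Settings, strand and annotation are not given in the sources used here. No mouse genome is named, so reads of host cells could be assigned to human genes. The values that the authors deposited are a signal: each gene's read count divided by a scaled library size (CPM). Dividing each library's values by that of 1 read gave integers for 100% of genes (tolerance 0.05 reads), and their sums are the depths.

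Members, lists and alternatives were chosen with earlier results of these data known. The test was limma 3.58.1 (R 4.3.3, trend and robust, two-sided) of log2(CPM + 1), for genes that reached 1 CPM in 5 or more libraries. It used 1 fit of 4 groups without covariates and Benjamini-Hochberg adjustment over all genes at 0.05. Named genes were the 8, MDM4, their families, up to 4 called genes of smallest adjusted p per list and the 3 most correlated genes, and some genes that this rule names are not reported here. The GATOR2 genes were named after their values were seen. Alternatives were another pseudocount (0.1), no or a stricter filter (5 CPM), TMM, no trend or robust fit, fits of 2 groups, blocks for replicate number or title code, edgeR 4.0.16 and DESeq2 1.42.0 on recovered reads, and left-out libraries. A length slope covariate was added after seeing the data. The fit was tested on simulated data. Gene positions are from GENCODE 29.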

Additional observations from a re-analysis of the deposited data

Results flagged for a closer look

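The level of each of the 8 genes in each group was checked for a library far from the others of its group, by Dixon's 95% critical value. Of 32 groups tested 5 held such a library, where chance flags about 1 in 20. AEN was at 70.1 CPM in Helicon4neg library 2, with the other 7 between 38.7 and 50.03, and this library also stood apart in its length slope. AEN was at 53.6 CPM in vehicle library 5, with the others between 35.5 and 44.4. MDM2 was at 47.4 CPM in vehicle library 6, the other of the 2 libraries called apart above, with the others between 21.3 and 34.5. SESN1 was at 51.2 CPM in Helicon4neg library 8, with the others between 37.97 and 44.1. GADD45A was at 25.6 CPM in Helicon4_100mpk library 4, with the others between 19.7 and 20.6.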

How the results depend on the processing

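Of the 21 calls on the 8 genes over the 6 comparisons, a pseudocount of 0.1, no filter, no trend or robust fit, DESeq2 and leaving out the 2 libraries that stood apart each kept 21. TMM, edgeR and the length slope covariate each lost AEN at 30 mpk against vehicle, the 5 CPM filter lost the same call and left the 4 calls of CDKN1A untested, and the comparison of only 2 groups lost 2. Title code as a block lost 18, and the cause was not tested. It called 0, 1, 1, 0 and 1 of the 8 genes for 100 mpk and 30 mpk against vehicle, 30 mpk against Helicon4neg, 100 against 30 mpk and 100 mpk against Helicon4neg. Over all genes it called 141, 74, 184, 10 and 189 in that order, where the reported fit called 4043, 1481, 2018, 482 and 4649, and it called 2 for Helicon4neg against vehicle, where the reported fit called 647. Under it RRM2B turned to -0.49 and -0.33 against vehicle at 100 and 30 mpk, to -0.54 for Helicon4neg and to -0.16 between doses. MDM2 at 30 mpk (0.0091), SESN1 and GADD45A for Helicon4neg (-0.10 and -0.019) and CDKN1A between doses (0.10) also changed sign, all without a call.

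For Helicon4neg against vehicle all-gene counts were 374 with only 2 groups, 1105 with DESeq2, 2031 without the 2 libraries and 2386 with the covariate. The covariate gave 2263, 3447 and 2021 for 30 mpk against vehicle, 30 mpk against Helicon4neg and 100 against 30 mpk. For the last of these DESeq2 gave 750 and leaving out the 2 libraries 1052, and only 2 groups left 1 of the 8 genes called. At least 5 CPM left 2 of the 8 called at 30 mpk against vehicle, with CDKN1A filtered out. Sign changes without a call were RRM2B at -0.075 (30 mpk) and -0.085 (Helicon4neg) and MDM2 at 0.0065 (30 mpk) with the covariate, and MDM2 at 0.035 (30 mpk against vehicle) and TIGAR at 0.018 (30 mpk against Helicon4neg) without the 2 libraries. The cause was not tested.

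With each library left out in turn, all-gene counts ranged from 986 (without Helicon4_30mpk 1) to 1623 for 30 mpk against vehicle. They ranged from 393 (without Helicon4neg 4) to 2595 (without Helicon4neg 2) for Helicon4neg against vehicle, and from 209 (without Helicon4_100mpk 2) to 704 for 100 against 30 mpk. Of the 8 genes, 2 to 4, 0 to 1 and 1 to 2 were called. Uncalled values that crossed 0 ranged from -0.062 to 0.081 for MDM2 at 100 mpk, from -0.089 to 0.035 for MDM2 and -0.15 to 0.0021 for GADD45A at 30 mpk, and, for Helicon4neg, from -0.069 to 0.0062 for BTG2, -0.0098 to 0.072 for SESN1 and -0.042 to 0.21 for RRM2B. TIGAR for 30 mpk against Helicon4neg ran from -0.059 to 0.029, and between doses CDKN1A from -0.13 to 0.029 and MDM2 from -0.034 to 0.11.

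Replicate numbers gave no pairing: of 35 same-numbered pairs 15 correlated above 0.1, with a range of -0.701 to 0.519, and 0 of 27 libraries correlated best with their own number. With the replicate number as a block MDM2 at 100 mpk was -0.016 and 4 of the 21 calls were lost, TIGAR at 100 mpk and AEN at 30 mpk against vehicle (adjusted p = 0.157 and 0.0598) and SESN1 at 30 mpk and GADD45A at 100 mpk against Helicon4neg (0.0644 and 0.0679). Reads per library limit CDKN1A, at 32 to 227.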
